A study of Mus musculus with 12 samples.

Results

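The FGF ligands and receptors followed here were 10 genes of neonatal mouse cardiac fibroblast cultures, with and without reprogramming by *Sox17* and *Erg*. They were the ligands *Fgf1*, *Fgf2*, *Fgf7*, *Fgf10* and *Fgf18*, the tyrosine kinase receptors *Fgfr1*, *Fgfr2*, *Fgfr3* and *Fgfr4*, and the receptor-like gene *Fgfrl1*. The members were the rows of the deposited count table whose Ensembl identifier carried 1 of these symbols, 10 of 35727 rows. All 10 passed the filter on low counts and were among the 15506 genes tested. *Fgfr4* reached 10 counts only in the 4 *Sox17*-*Erg* libraries of Day 3 and Day 7, and *Fgf10* cleared the filter's CPM limit only in the 6 control libraries. Both thus entered through the group where they were higher, and their differences are given as descriptions without a test.

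Bulk RNAseq was performed on fibroblasts from mouse hearts at Day 3, Day 7 and 4 weeks, and each time point had 2 libraries of control cells and 2 libraries of *Sox17*-*Erg* induced endothelial cells (iECs), 12 libraries in 6 groups. The cells came from pooled hearts of newborn mice, and *Sox17* and *Erg* were delivered by retrovirus. The control columns carried the name of the retroviral backbone, and what the control virus encoded was not given in the sources used here. The study's methods name C57BL/6J mice and *Tcf21*-CreERT2 mice crossed to *Rosa26*-tdTomato as sources of cells, without saying which of them these libraries came from. All groups shared the EGM2 medium, an endothelial growth medium that is supplied with recombinant FGF2 among its supplements. Cultures in it received FGF protein that the RNA counts do not show. In the study's methods, fibroblasts and virus were resuspended in a fibroblast medium with serum, and the time of a change to EGM2 is not stated there. The iEC libraries stood for whole cultures, since no sorting of cells for RNA was described. In the study's methods, neonatal fibroblasts were selected on magnetic columns with an antibody to THY1, after an optional step that removes PECAM1-positive endothelial cells. The study describes that step as added for the characterization of the iECs, of which the bulk RNAseq was a part. Nothing in the labels says that the 2 libraries of a group came from separate isolations, so p-values measure the spread between these libraries, which may be technical.

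Secreted FGF ligands bind the receptor tyrosine kinases FGFR1 to FGFR4 together with heparan sulfate, and the active receptors signal through FRS2, RAS and ERK. FGF1 binds all receptor forms, FGF2 favors the mesenchymal splice forms, and FGF7 and FGF10 signal mainly to the epithelial form of FGFR2. FGF18 signals mainly through FGFR3 and other mesenchymal forms, and FGFRL1 binds ligand but lacks the kinase domain. In the heart, FGF2 and FGFR1 are known for roles in fibroblasts and in vessel growth, and FGF10 for roles in epicardial and cardiac progenitor growth. The counts were per gene and did not separate the splice forms of the receptors.

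Since ERG is an ETS factor and SOX17 a SOX factor, the promoters of the members were read for short words of both motif families. RefSeq promoters of GRCm38.p6, the assembly also called mm10 in the labels, were held for 8 of the 10 members in 9 windows, from 250 bases before to 50 bases after the start. The ETS words AGGAAG and CGGAAG and the SOX words ACAATG and ACAAAG were searched on both strands. An ETS word was found in 4 of the 9 windows and in 46.5% of all 32851 promoters, and a SOX word in 2 of the 9 and in 28.6% of all. The windows of *Fgfr3* and *Fgfrl1*, which were higher, and of *Fgf2* and *Fgf18*, which were lower with *Sox17*-*Erg* at 4 weeks, are shown, from 120 bases before to 30 bases after the start, with motif words in capitals. For *Fgfr3* the first of its RefSeq starts was taken.
*Fgfr3*, chr5:33721604-33721753 (plus strand): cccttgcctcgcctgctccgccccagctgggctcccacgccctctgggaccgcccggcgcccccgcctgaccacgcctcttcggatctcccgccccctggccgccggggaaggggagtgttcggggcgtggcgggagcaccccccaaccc
*Fgfrl1*, chr5:108694109-108694258 (plus strand): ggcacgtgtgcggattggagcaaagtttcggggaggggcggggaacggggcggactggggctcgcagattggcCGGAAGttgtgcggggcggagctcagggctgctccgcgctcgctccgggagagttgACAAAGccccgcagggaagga
*Fgf2*, chr3:37348533-37348682 (plus strand): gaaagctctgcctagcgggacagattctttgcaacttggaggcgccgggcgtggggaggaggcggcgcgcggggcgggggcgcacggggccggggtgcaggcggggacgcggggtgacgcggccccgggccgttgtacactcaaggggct
*Fgf18*, chr11:33147371-33147520 (minus strand): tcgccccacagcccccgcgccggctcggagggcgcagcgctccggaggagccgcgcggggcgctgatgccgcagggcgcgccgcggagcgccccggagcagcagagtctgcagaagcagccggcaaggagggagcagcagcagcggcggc
The window of *Fgfrl1* held an ETS word 47 bases before the start (position -47) and a SOX word at position 10, counted from 1 at the first transcribed base. That of *Fgf2* held an ETS word at position 42, beyond the bases shown, and those of *Fgfr3* and *Fgf18* held none, so the words did not divide higher from lower members. The full windows were rich in GC, with 69.7% for *Fgfr3*, 73.7% for *Fgfrl1*, 78.7% for *Fgf18* and 62.7% for *Fgf2*, against a median of 52.7% over all promoters. A match describes letters in a window and is not a binding site, and a window without a match says nothing about either factor.

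Total counts ran from 19011635 to 41240449 per library, so that 3 counts, the floor used here, stood for 0.0752 to 0.152 CPM. CPM is the number of counts of a gene in every 1e+06 counts of its library, with library sizes scaled by TMM factors. Among the delivered genes, *Sox17* lay between 432 and 1036 CPM in the 6 *Sox17*-*Erg* libraries and at 0.416 CPM or less in the controls, and *Erg* lay between 17.1 and 65.2 CPM against at most 2.27 CPM. The label iEC was checked against 15 endothelial markers, of which 14 were tested. With *Sox17*-*Erg*, 5 were higher at the first time point, 6 at the next and 9 at 4 weeks, where *Eng* was lower. Of all tested genes, 7.19%, 9.48% and 11.9% were higher in time order, and 11.0% were lower at 4 weeks. *Cdh5*, the endothelial cadherin, was between 148 and 496 CPM in the iEC libraries. In the control libraries it was 0.910 and 14.3 CPM at Day 3, 0.230 and 8.08 CPM at Day 7 and then 0.251 and 0.569 CPM, so that the control replicate 2 libraries of Day 3 and Day 7 stood above the other controls. The cardiac fibroblast markers summed to between 16814 and 40326 CPM in the control libraries.

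At Day 3, 2 of the 10 members passed an adjusted p of 0.05 in edgeR's quasi-likelihood test, both ligands and both lower with *Sox17*-*Erg*. The background was 5.13% of all tested genes lower and 7.19% higher. At Day 7, *Fgf2* was again lower and *Fgfr3* was higher, against 7.93% of all genes lower and 9.48% higher. At 4 weeks, *Fgf2* and *Fgf18* were lower and *Fgfr1*, *Fgfr3* and *Fgfrl1* higher, against 11.0% of all genes lower and 11.9% higher. *Fgf10* is not counted here. Both libraries of extreme depth were also left out, which are control 4 weeks replicate 1 as the deepest and *Sox17*-*Erg* Day 3 replicate 1 as the shallowest. At Day 7, 2 members were then called, against 1194 higher and 1025 lower of all 16035 genes tested. At Day 3 and 4 weeks that left a single library in a group, and calls fell among all genes too. There the ligand calls were lost, while the receptor genes of 4 weeks kept theirs. The log2 fold changes were -0.98 for *Fgf2* and -1.68 for *Fgf7* at Day 3, and -0.89 for *Fgf2* and -1.17 for *Fgf18* at 4 weeks. Groups did not overlap in 7 of 10 members at each time point, where 64.0% of all genes did not overlap at Day 3, with 57.9% and 62.7% at the later time points, so non-overlap alone was near the background. The median log2 fold change of the 5 ligands was -1.22, -0.93 and -0.95 in time order, and that of the 5 receptor genes was -0.19, 0.31 and 0.49, while the median of all tested genes lay at 0.01, 0.01 and -0.01. These medians and the non-overlap counts include *Fgf10* and *Fgfr4*, which entered through their higher group, so they are descriptions and no support for a difference between ligands and receptors. The values of each member are given below. In bulk samples, fewer cells of a type and less RNA per cell cannot be told apart, and that holds for every member below.

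**Figure D1:**
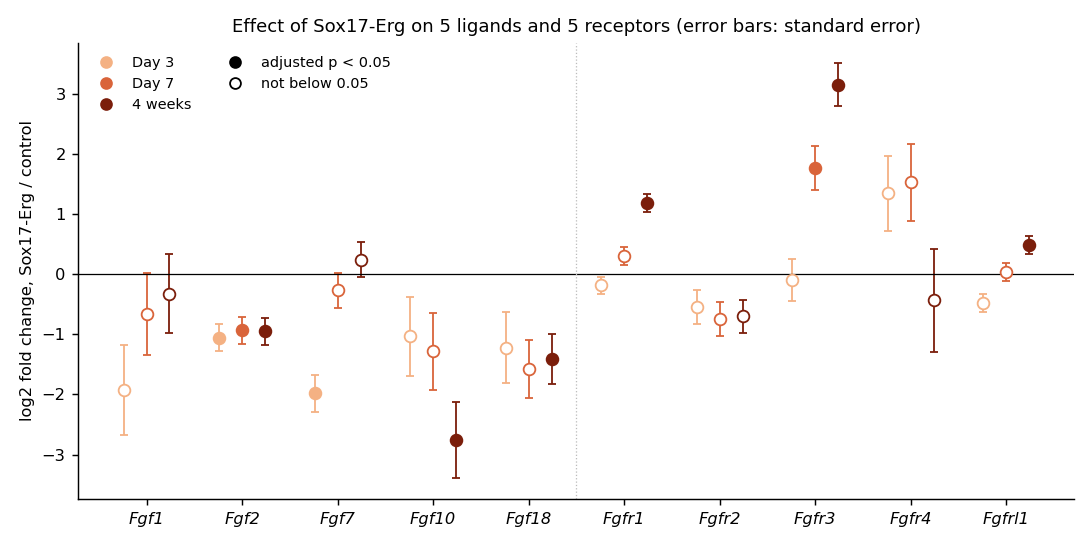
Log2 fold change of Sox17-Erg over control for the 10 members at 3 time points (y axis, log2 units; points: edgeR estimates from 2 libraries per group; error bars: standard error; filled points: adjusted p under 0.05). The 5 ligands sit at or below 0 except Fgf7 at 4 weeks at 0.24, and Fgfr1 and Fgfr3 climb to 1.18 and 3.15 at 4 weeks. Fgf10 and Fgfr4 passed the filter on low counts through their higher group, so their points are descriptions.

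*Fgf2*, the most abundant ligand here and a known mitogen of fibroblasts and endothelium, was lower with *Sox17*-*Erg* at all 3 time points. It lies on chromosome 3 from 37348477 to 37410106 on the plus strand (GRCm38). At Day 3 it measured 121 and 79.9 CPM in control and 46.0 and 50.9 CPM in *Sox17*-*Erg* libraries. At Day 7 the values were 211 and 140 CPM against 89.8 and 94.3 CPM, and at 4 weeks 244 and 224 CPM against 126 and 116 CPM. Every control library stood above every *Sox17*-*Erg* library of its time point. The log2 fold changes were -1.05 ± 0.22 (SE, adjusted p = 0.0196), -0.93 ± 0.22 (adjusted p = 0.0207) and -0.95 ± 0.22 (adjusted p = 0.014).

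The *Fgf2* difference kept its direction without each library in turn, while its calls did not hold. At Day 3 the call was lost without control replicate 1 (log2 fold change -0.72, adjusted p = 0.121), *Sox17*-*Erg* replicate 1 (-1.02, 0.159) or *Sox17*-*Erg* replicate 2 (-1.13, 0.0554). At Day 7 it was lost without control replicate 1 (-0.63, 0.0915), *Sox17*-*Erg* replicate 1 (-0.90, 0.135) or *Sox17*-*Erg* replicate 2 (-1.01, 0.0546), where a fit of the time point alone also lost it (-0.95, 0.0767), and at 4 weeks without control replicate 1 (-0.89, 0.0734), *Sox17*-*Erg* replicate 1 (-1.02, 0.0675) or *Sox17*-*Erg* replicate 2 (-0.92, 0.0767). In such fits the library left alone in its group is assumed to vary like the other groups. *Nudt6* is transcribed from the strand opposite to *Fgf2*, and 8.50% of the 31-base words of *Fgf2* transcripts lay on the opposite strand of annotated *Nudt6* transcripts. The kit was stranded, but the strand setting of the counting was not given in the sources used here. *Nudt6* itself measured 1.06 to 3.58 CPM over the 12 libraries.

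*Fgf7*, the keratinocyte growth factor made by mesenchymal cells, was lower with *Sox17*-*Erg* at Day 3 and near the control level later. The gene lies on chromosome 2 from 126034658 to 126091185 on the plus strand. At Day 3 its level was 5.46 and 6.20 CPM in control and 1.11 and 1.81 CPM in *Sox17*-*Erg* libraries, which did not overlap. The log2 fold change was -1.98 ± 0.31 (SE, adjusted p = 0.00659), and without *Sox17*-*Erg* replicate 1 it was -1.72 with an adjusted p of 0.065. At Day 7 the values were 4.72 and 3.98 CPM against 3.01 and 4.26 CPM, and at 4 weeks 4.91 and 5.29 CPM against 4.85 and 7.22 CPM, so the groups overlapped at both. There the log2 fold changes were -0.27 ± 0.29 (adjusted p = 0.572) and 0.24 ± 0.29 (adjusted p = 0.591).

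*Fgf10*, a mesenchymal ligand that acts mainly on epithelium, was scarce, and its 4 week values were below control in both *Sox17*-*Erg* libraries. Its position is chromosome 13 from 118714699 to 118792573 on the plus strand. At 4 weeks the control libraries held 125 and 26 counts, or 3.13 and 1.06 CPM, and the *Sox17*-*Erg* libraries 8 and 9 counts, or 0.283 and 0.333 CPM. Both control libraries stood above both *Sox17*-*Erg* libraries, although they lay far apart, and control replicate 1, the higher of them, was the deepest library of the series. As a description, the log2 fold change was -2.76 ± 0.63 (SE), and it was -1.76 without control replicate 1 and -2.65 and -2.91 without *Sox17*-*Erg* replicate 1 and 2.

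At the earlier time points *Fgf10* held 20 and 13 counts against 5 and 9 at Day 3, and 27 and 12 counts against 14 and 5 at Day 7. In CPM these were 0.728 and 0.601 against 0.253 and 0.388, and 1.04 and 0.482 against 0.386 and 0.220. The *Sox17*-*Erg* libraries stood below the controls at both, with log2 fold changes of -1.03 ± 0.66 (SE) and -1.28 ± 0.64.

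*Fgf18*, a ligand known from bone, cartilage and lung development, was also scarce and rose with time in both groups. On the map it spans chromosome 11 from 33116970 to 33147400 on the minus strand. At 4 weeks it measured 3.13 and 2.32 CPM in control and 1.17 and 0.889 CPM in *Sox17*-*Erg* libraries, from 125 and 57 counts against 33 and 24. The groups did not overlap, and the log2 fold change was -1.40 ± 0.42 (SE, adjusted p = 0.0388). This call stood close to the threshold. The adjusted p was 0.214 without control replicate 1 (log2 fold change -1.17), 0.07 without control replicate 2 (-1.59), 0.113 without *Sox17*-*Erg* replicate 1 (-1.62) and 0.164 without *Sox17*-*Erg* replicate 2 (-1.25), and it was 0.0502 and 0.0513 without the Day 7 *Sox17*-*Erg* replicates 1 and 2 (-1.40 each). The call was also lost by DESeq2 (-1.40, adjusted p = 0.0582), with no filter on low counts (-1.41, 0.0608), with the time point alone (-1.38, 0.0529) and with a GC content offset (-1.36, 0.0505).

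At Day 7 *Fgf18* measured 0.922 and 0.643 CPM in control and 0.221 and 0.308 CPM in *Sox17*-*Erg* libraries. The log2 fold change was -1.58 ± 0.48 (SE) with an adjusted p of 0.0502, which just missed the threshold. It fell below the threshold in 4 of 24 fits, the main fit among the 24 (lowest adjusted p = 0.0411, with a replicate block). At Day 3 it held 10 and 4 counts in control and 3 and 2 counts in *Sox17*-*Erg* libraries. The ratio of *Sox17*-*Erg* to control per total count was 0.408 there, with an exact binomial 95% interval from 0.115 to 1.199 that covers counting error only. Both *Sox17*-*Erg* libraries lay below both controls, and the log2 fold change of -1.22 ± 0.60 (SE) did not pass the test (adjusted p = 0.204).

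*Fgf1*, a ligand of all receptor forms, did not pass edgeR's test at any time point, although its Day 3 difference passed under other settings. The gene spans chromosome 18 from 38838672 to 38929470 on the minus strand. Day 3 values were 2.69 and 5.04 CPM in control and 0.708 and 1.29 CPM in *Sox17*-*Erg* libraries, with a log2 fold change of -1.93 ± 0.75 (SE, adjusted p = 0.121). At Day 7 the values were 3.26 and 6.31 CPM against 0.965 and 5.18 CPM (-0.67 ± 0.68, adjusted p = 0.541), and at 4 weeks 6.34 and 9.35 CPM against 7.40 and 5.11 CPM (-0.32 ± 0.66, adjusted p = 0.772). The groups did not overlap at Day 3 and overlapped later. The Day 7 value rested on a single library, since it was 0.12 without *Sox17*-*Erg* replicate 1 and -2.34 without *Sox17*-*Erg* replicate 2, where it passed the test (adjusted p = 0.0397). The Day 3 difference passed by DESeq2 (-1.96, adjusted p = 0.0358), with no filter on low counts (-1.92, 0.00228) and with a replicate block within each time point (-1.94, 0.0243). It also passed without the Day 7 *Sox17*-*Erg* replicate 1 (-1.93, adjusted p = 0.0399) or 2 (-1.97, 0.0381).

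**Figure D2:**
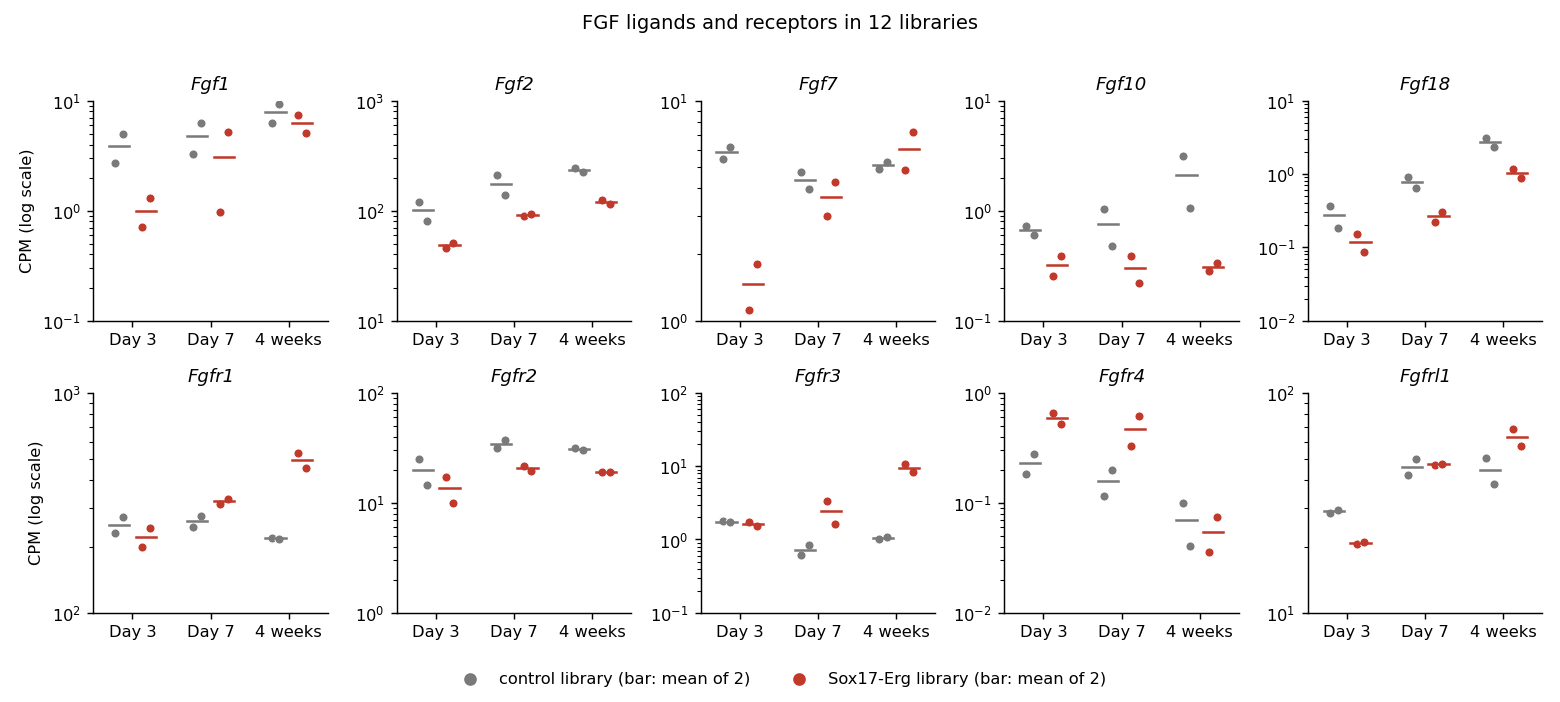
CPM of each member in the 12 libraries by time point (y axis: TMM-normalized CPM on a log scale; points: libraries; bars: mean of 2). Fgf2 lies lower in the Sox17-Erg libraries at every time point (121 CPM against 234 CPM on average at 4 weeks), while Fgfr3 parts only later (9.48 against 1.06 CPM at 4 weeks).

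Among the receptors, *Fgfr3*, known as a brake on bone growth, showed the largest change of the 10 members at 4 weeks. It lies on chromosome 5 from 33721724 to 33737068 on the plus strand. Its Day 3 level was 1.78 and 1.71 CPM in control and 1.72 and 1.55 CPM in *Sox17*-*Erg* libraries, which overlapped (log2 fold change -0.10 ± 0.35 SE, adjusted p = 0.884). At Day 7 it measured 0.615 and 0.844 CPM against 3.31 and 1.63 CPM, and at 4 weeks 1.03 and 1.10 CPM against 10.6 and 8.33 CPM. At both, the *Sox17*-*Erg* libraries stood above the controls. The log2 fold changes were 1.77 ± 0.36 (adjusted p = 0.0109) and 3.15 ± 0.36 (adjusted p = 0.000373).

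The 4 week difference of *Fgfr3* passed the test in all 24 fits that gave it a value, the main fit included, with log2 fold changes between 2.96 and 3.29. At Day 7 the call was lost without control replicate 1 (1.53, adjusted p = 0.0659) or *Sox17*-*Erg* replicate 1 (1.15, adjusted p = 0.0912), and with the time point alone (1.75, 0.102). Of the 31-base words of *Fgfr3* transcripts, 14.9% lay on the opposite strand of other annotated transcripts, mainly the antisense gene *G630022F23Rik*, which had no row among those analysed. If the counting ignored strand, its reads could not be told apart from those of *Fgfr3*.

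*Fgfr1*, the main receptor of mesenchymal and endothelial cells, rose above control late. Its locus is chromosome 8 from 25518759 to 25575718 on the plus strand. On Day 3 it measured 230 and 274 CPM in control and 199 and 243 CPM in *Sox17*-*Erg* libraries, and at Day 7 245 and 275 CPM against 314 and 330 CPM. At 4 weeks it measured 220 and 216 CPM against 534 and 454 CPM. The groups overlapped at Day 3 and were apart at Day 7 and 4 weeks. The log2 fold changes were -0.19 ± 0.15 (SE, adjusted p = 0.439), 0.31 ± 0.15 (adjusted p = 0.191) and 1.18 ± 0.15 (adjusted p = 0.000701), and the last passed the test in all 24 fits, the main fit included, between 1.05 and 1.27.

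*Fgfrl1*, the receptor-like gene without a kinase domain, was the third receptor gene higher at 4 weeks. It lies on chromosome 5 from 108694229 to 108706950 on the plus strand. At Day 3 the libraries measured 28.3 and 29.5 CPM in control and 20.7 and 20.9 CPM in *Sox17*-*Erg* libraries (log2 fold change -0.48 ± 0.15 SE, adjusted p = 0.0719). At Day 7 it measured 42.1 and 50.3 CPM against 46.9 and 47.7 CPM (0.03 ± 0.15, adjusted p = 0.906), and at 4 weeks 50.4 and 38.5 CPM against 68.2 and 57.2 CPM (0.49 ± 0.15, adjusted p = 0.042). The *Sox17*-*Erg* libraries thus lay below control at Day 3, within it at Day 7 and above it at 4 weeks.

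The 4 week call of *Fgfrl1* was a weak one. Without control replicate 2 the log2 fold change was 0.32 (adjusted p = 0.202), and without *Sox17*-*Erg* replicate 1 or 2 it was 0.35 (0.233) and 0.59 (0.0553). It was also lost, with log2 fold changes between 0.49 and 0.50, without control Day 3 replicate 1 (adjusted p = 0.067), *Sox17*-*Erg* Day 3 replicate 1 (0.0574) or 2 (0.0625) and *Sox17*-*Erg* Day 7 replicate 1 (0.0568) or 2 (0.0537). A GC content offset (0.47, adjusted p = 0.115), that offset with a replicate block (0.46, 0.125) and a fit of the time point alone (0.52, 0.0959) lost it as well. At Day 3 the lower level passed in 6 of 24 fits, the main fit among the 24. Among the 6 were DESeq2 (-0.50, adjusted p = 0.0449), a fit of the time point alone (-0.50, 0.0322), a block within each time point (-0.48, 0.0187) and leaving out control 4 weeks replicate 2 (-0.52).

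*Fgfr2*, the receptor whose epithelial form answers to FGF7 and FGF10, was the only receptor gene with a negative log2 fold change at every time point, and it passed edgeR's main test at none. The locus is on chromosome 7 from 130162451 to 130266808 on the minus strand. At Day 3 its level was 25.3 and 14.4 CPM in control and 17.2 and 9.997 CPM in *Sox17*-*Erg* libraries, at Day 7 31.8 and 37.5 CPM against 21.6 and 19.7 CPM, and at 4 weeks 31.6 and 30.3 CPM against 19.04 and 19.001 CPM. The groups did not overlap at Day 7 and 4 weeks. The log2 fold changes were -0.55 ± 0.28 (SE, adjusted p = 0.228), -0.74 ± 0.28 (adjusted p = 0.101) and -0.70 ± 0.28 (adjusted p = 0.104). The call depended on the fit. With a replicate block within each time point it passed at all 3 (-0.54, -0.74 and -0.70, adjusted p = 0.02, 0.00462 and 0.00437), and with no filter on low counts it passed at Day 7 (-0.73, 0.0109) and 4 weeks (-0.71, 0.0125). At 4 weeks it also passed with only that time point fitted (-0.68, 0.0162).

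*Fgfr4*, a receptor known from liver and muscle, was near the floor everywhere. Its gene spans chromosome 13 from 55152818 to 55168759 on the plus strand. It held 5 and 6 counts in control and 13 and 12 counts in *Sox17*-*Erg* libraries at Day 3, and 3 and 5 counts against 12 and 14 at Day 7. As a description, the log2 fold changes were 1.35 ± 0.62 (SE) and 1.53 ± 0.64. At 4 weeks it held 4 and 1 counts against 1 and 2, a ratio of 0.727 per total count with an exact binomial 95% interval from 0.113 to 3.74. No difference was detected at that depth.

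Levels were compared between genes only per length, as CPM per kilobase of the mean annotated transcript length. In control cells at 4 weeks, *Fgf2* was highest at 189.9 ± 11.3 CPM per kilobase (SD, n = 2), followed by *Fgfr1* at 96.6 ± 1.21, *Fgfrl1* at 36.8 ± 6.96 and *Fgfr2* at 14.4 ± 0.428. *Fgf1* at 5.51 ± 1.496, *Fgf7* at 2.63 ± 0.137 and *Fgf18* at 2.62 ± 0.554 came next, and the last neighbors in this order did not differ beyond their spread. *Fgf10* at 1.21 ± 0.848, *Fgfr3* at 0.486 ± 0.0228 and *Fgfr4* at 0.0486 ± 0.0290 were lowest, where *Fgf10* and *Fgfr3* overlapped within the spread as well.

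In *Sox17*-*Erg* cells at 4 weeks, *Fgfr1* stood first at 219 ± 25.0 CPM per kilobase (SD, n = 2), above *Fgf2* at 98.3 ± 5.94, *Fgfrl1* at 51.8 ± 6.48 and *Fgfr2* at 8.85 ± 0.0136. *Fgf1* at 4.39 ± 1.14, *Fgfr3* at 4.33 ± 0.738 and *Fgf7* at 3.12 ± 0.866 did not differ beyond their spread. *Fgf18* at 0.990 ± 0.190, *Fgf10* at 0.178 ± 0.0205 and *Fgfr4* at 0.0377 ± 0.0189 were lowest. The place of *Fgf2* depends on the length used: with the longest annotated transcript it was 39.2 CPM per kilobase in control cells at 4 weeks, below *Fgfr1* at 43.2.

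Among the tyrosine kinase receptors, *Fgfr1* made up between 86.5% and 94.97% of the summed CPM per kilobase of *Fgfr1* to *Fgfr4* in the 12 libraries. The share of *Fgfr2* was 13.04% and 12.77% in the control libraries at 4 weeks and 3.54% and 4.13% in the *Sox17*-*Erg* libraries. The share of *Fgfr3* was 0.417% and 0.455% against 1.94% and 1.78%. Those groups did not overlap, and at Day 3 both shares did. Among the ligands, *Fgf2* made up 89.9% to 96.5% by mean length and 77.4% to 90.6% by the longest transcript.

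**Figure D3:**
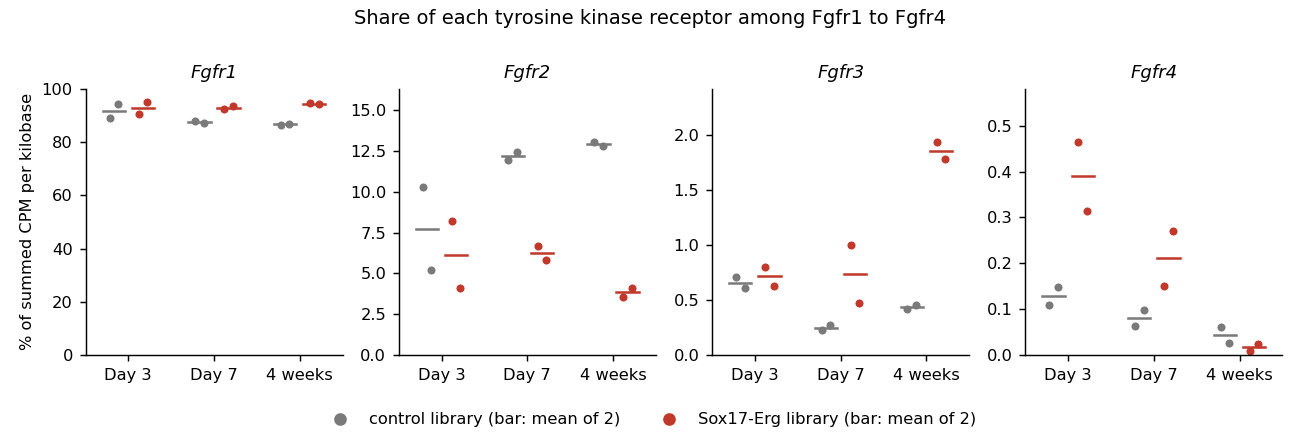
Share of each tyrosine kinase receptor in the summed CPM per kilobase of Fgfr1 to Fgfr4 (y axis: percent, with a scale of its own in each panel; points: libraries; bars: mean of 2). At 4 weeks Fgfr2 held 12.9% in control and 3.84% in Sox17-Erg on average, and Fgfr3 0.436% and 1.86%.

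From Day 3 to 4 weeks, 3 of the 10 members rose in control cells and none fell, where 26.5% of all genes passed the test. In *Sox17*-*Erg* cells 7 rose, where 30.7% of all genes passed in either direction. *Fgfr4*, which entered through its counts in the Day 3 and Day 7 *Sox17*-*Erg* libraries, is not counted. *Fgf2* and *Fgf18* rose in both groups, *Fgf2* by 1.22 ± 0.22 (SE, adjusted p = 0.00509; 1.16 and 0.0518 without both libraries of extreme depth) on the log2 scale in control and 1.32 ± 0.22 (adjusted p = 0.00351) in *Sox17*-*Erg* cells, and *Fgf18* by 3.27 ± 0.47 (adjusted p = 0.00179) and 3.08 ± 0.54 (adjusted p = 0.00396). *Fgfrl1* rose by 0.62 ± 0.15 (adjusted p = 0.0164) and 1.59 ± 0.15 (adjusted p = 0.000399). The control call of *Fgfrl1* was lost without control Day 3 replicate 1 (0.60, adjusted p = 0.0979) or 2 (0.63, 0.0739) and without control 4 weeks replicate 1 (0.42, 0.123).

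In *Sox17*-*Erg* cells *Fgf1*, *Fgf7*, *Fgfr1* and *Fgfr3* also rose with time, by 2.63 ± 0.75 (SE, adjusted p = 0.027), 2.03 ± 0.31 (adjusted p = 0.00238), 1.16 ± 0.15 (adjusted p = 0.00117) and 2.53 ± 0.35 (adjusted p = 0.00152) on the log2 scale. *Fgfr4* held 13 and 12 counts at Day 3 and 1 and 2 at 4 weeks. The rise of *Fgf1* was lost without *Sox17*-*Erg* Day 3 replicate 1 (2.33, adjusted p = 0.146) or 2 (3.14, 0.0754) and without *Sox17*-*Erg* 4 weeks replicate 1 (2.38, 0.108) or 2 (2.87, 0.0516). In control cells the changes of *Fgf1*, *Fgf7*, *Fgfr1* and *Fgfr3* did not pass, at 1.02, -0.19, -0.21 and -0.72 in the same order, and *Fgfr4* held 5 and 6 counts at Day 3 and 4 and 1 at 4 weeks. As a description, the log2 difference of *Fgf10* was 1.66 ± 0.59 in control and -0.07 ± 0.69 in *Sox17*-*Erg* cells. *Fgfr2* changed by 0.64 ± 0.28 (adjusted p = 0.124) and 0.49 ± 0.28 (adjusted p = 0.226), and without control Day 3 replicate 1 the control change passed (1.10, 0.0457).

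The difference in the *Sox17*-*Erg* effect between Day 3 and 4 weeks was tested itself as an interaction. It passed for 4 of the 10 members, where 3.21% of all genes passed. The effect rose by 3.25 ± 0.49 (SE, adjusted p = 0.0101) on the log2 scale for *Fgfr3*, 2.23 ± 0.42 (adjusted p = 0.0264) for *Fgf7*, 1.37 ± 0.21 (adjusted p = 0.0106) for *Fgfr1* and 0.97 ± 0.21 (adjusted p = 0.0451) for *Fgfrl1*. For *Fgf2* it was 0.10 ± 0.31 (adjusted p = 0.923). With both libraries of extreme depth left out, none of these calls was kept. The effect then rose by 3.27 for *Fgfr3*, 1.87 for *Fgf7*, 1.24 for *Fgfr1* and 1.17 for *Fgfrl1*. That fit left a single library in a group at Day 3 and at 4 weeks, and the share of all genes passing in it is not given.

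The interactions of *Fgfr1* and *Fgfr3* passed without each single library, while those of *Fgf7* and *Fgfrl1* did not. That of *Fgf7* was lost without either Day 3 control replicate (2.32 and 2.202, adjusted p = 0.0775 and 0.0851), either 4 weeks control replicate (2.17 and 2.33, adjusted p = 0.091 and 0.0652), *Sox17*-*Erg* Day 3 replicate 1 (1.97, 0.0848) or *Sox17*-*Erg* 4 weeks replicate 2 (1.90, 0.0749). That of *Fgfrl1* was lost without any one of 9 libraries, with values between 0.84 and 1.08 and adjusted p between 0.0527 and 0.144. These were all libraries but the control Day 7 replicates and control 4 weeks replicate 1. A GC content offset also lost *Fgfrl1* (0.80, adjusted p = 0.183), and that offset with a replicate block lost *Fgfrl1* (0.79, 0.187) and *Fgfr1* (1.35, 0.0553).

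**Figure D4:**
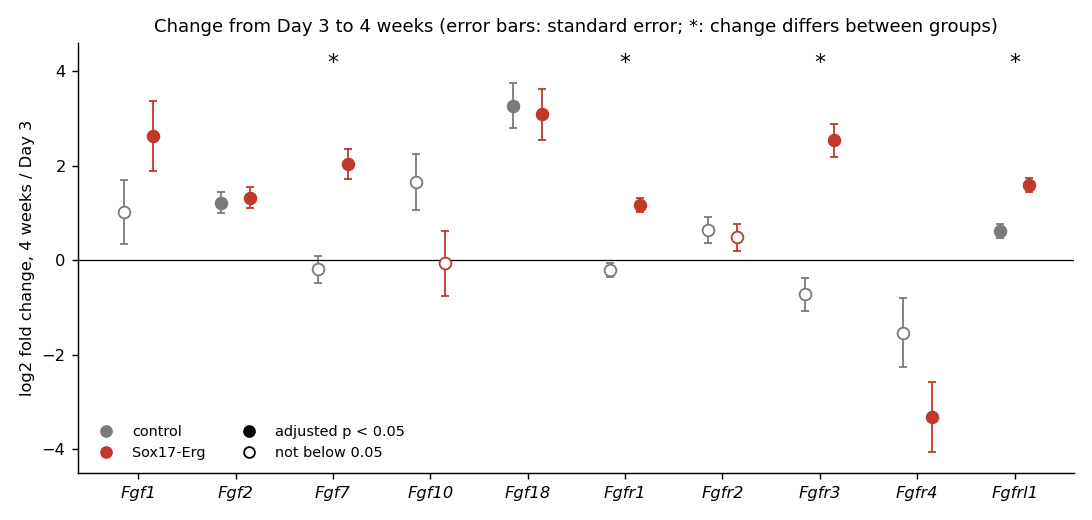
Log2 fold change from Day 3 to 4 weeks in control and in Sox17-Erg cells (y axis, log2 units; points: edgeR estimates from 2 libraries per group and time; error bars: standard error; filled points: adjusted p under 0.05; stars: interaction with an adjusted p under 0.05). Fgf18 rose by 3.27 and 3.08, while Fgfr1 changed by -0.21 in control and 1.16 in Sox17-Erg cells.

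Shorter steps gave fewer calls. From Day 3 to Day 7 edgeR called *Fgfrl1* in both groups and no other member, while DESeq2 called 2 members in control and 4 in *Sox17*-*Erg* cells. *Fgfrl1* rose by 0.68 ± 0.15 (SE, adjusted p = 0.0294) on the log2 scale in control, where 8.76% of all genes passed, and by 1.19 ± 0.15 (adjusted p = 0.0145) in *Sox17*-*Erg* cells, where 3.42% did. From Day 7 to 4 weeks edgeR called 0 members in control, against 0.393% of all genes, with 2 at an unadjusted p under 0.05 and 1 by DESeq2. In *Sox17*-*Erg* cells it called *Fgfr3* (1.93 ± 0.33, adjusted p = 0.0276), against 1.82% of all genes. These single calls rested on few libraries: the count was 0 for the control step without control Day 3 replicate 1 or 2 or control Day 7 replicate 2, 0 for the *Sox17*-*Erg* step from Day 3 without *Sox17*-*Erg* Day 3 replicate 1 or 2, and 0 for that from Day 7 without control Day 3 replicate 1 or 2, *Sox17*-*Erg* Day 7 replicate 2 or either *Sox17*-*Erg* 4 weeks replicate. No difference in the effect was called by edgeR between Day 3 and Day 7 (0 called, 4 at an unadjusted p under 0.05, 1 by DESeq2, background 0.0838%) or between Day 7 and 4 weeks (0 called, 2 unadjusted, 1 by DESeq2, background 0.0387%). The 4 were *Fgf7* (1.72 ± 0.43), *Fgfr3* (1.86 ± 0.50), *Fgfr1* (0.49 ± 0.21) and *Fgfrl1* (0.51 ± 0.21). The 2 were *Fgfr1* (0.87 ± 0.21) and *Fgfr3* (1.39 ± 0.50).

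A single difference over all 3 time points was tested by exact two-sided permutation of the labels within each time point, since 2 against 2 libraries allow no p below 0.333. The smallest p of the 216 permutations was 0.00926, which 28.3% of all tested genes reached. *Fgf2* and *Fgf18* were at this smallest p, with mean log2 CPM differences of -0.96 and -1.17 (adjusted p = 0.0328 each, exact permutation). *Fgfr2* had a mean difference of -0.66 (exact permutation p = 0.0185, adjusted 0.0514) and *Fgfr3* of 1.52 (exact permutation p = 0.0463, adjusted 0.0981). *Fgf1*, *Fgf7*, *Fgfr1* and *Fgfrl1* had exact permutation p-values between 0.0648 and 0.898.

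For each member called at a time point, the 2 tested genes with the most similar log2 CPM over the 12 libraries were named, as a description over points that share groups and time. *Fgf2* went with *Sgpp1* and *Rnase4* (Pearson r = 0.976 and 0.972), *Fgf18* with *Bmpr1a*, a BMP receptor, and *Gsta3* (0.976 and 0.975), and *Fgfr3* with *St3gal2* and *Vamp1* (0.965 and 0.963). *Fgfr1* went with *Ptgfrn* and *St8sia5* (0.962 and 0.948) and *Fgfrl1* with *Lynx1* and *Pros1* (0.959 and 0.955). *Fgf7* went with *Arhgef10l* and *1700020D05Rik* (0.924 and 0.922).

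Of 17 other FGF genes, 5 passed the filter on low counts, and they are mostly the intracellular *Fgf11*, *Fgf12*, *Fgf13* and *Fgf14* with the secreted *Fgf9*. None was called with *Sox17*-*Erg* at any time point by edgeR or DESeq2, and 1 had an unadjusted p under 0.05, *Fgf11* at 4 weeks (log2 fold change 0.63 ± 0.28 SE, adjusted p = 0.138). *Fgf14*, a regulator of sodium channels, had -0.62 ± 0.32 (adjusted p = 0.227) at Day 3 and -0.33 ± 0.29 (adjusted p = 0.469) at Day 7. As a description, *Fgf9* had -1.11 ± 1.04 and -1.29 ± 0.97. *Fgf13* had 0.74 ± 0.69 (adjusted p = 0.518) and 0.55 ± 0.73 (adjusted p = 0.643). *Fgf12* at 1.23 ± 0.68 (adjusted p = 0.23) followed at 4 weeks. *Fgf9* cleared the filter's CPM limit only in the *Sox17*-*Erg* libraries of 4 weeks, with 20 and 12 counts against 14 and 5 in control. Its log2 fold change there, 1.01 ± 0.73, is a description without a test. The other 12 held at most 14 counts in any library.

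FGF co-receptors and binding proteins held a few large changes. The share of all tested genes called, against which the counts of this and the next 4 lists are read, was 7.19%, 9.48% and 11.9% for higher genes in time order, and 5.13%, 7.93% and 11.0% for lower ones. Of 12 tested, 2 passed as higher and 1 as lower at the first time point, 2 higher and 0 lower at the next, and 3 higher and 2 lower at the last, with a median log2 fold change of -0.08 at 4 weeks. *Flrt3*, a membrane protein that binds FGF receptors, measured 0.576 and 0.488 CPM in control and 9.66 and 5.78 CPM in *Sox17*-*Erg* libraries at 4 weeks. *Cd44*, a hyaluronan receptor whose heparan sulfate forms present FGFs, measured 22.5 and 33.3 CPM against 391.7 and 316 CPM. The groups were far apart for both, with log2 fold changes of 1.86, 1.45 and 3.84 for *Flrt3* and 1.08, 2.75 and 3.67 for *Cd44* over the time points.

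*Flrt2*, its relative, was lower by -1.83 ± 0.33 (SE, adjusted p = 0.00421) at 4 weeks, and *Il17rd* (Sef), an inhibitor of FGF signaling, was lower by -0.97 ± 0.15 (adjusted p = 0.00625) at Day 3. *Il17rd* measured 17.6 and 15.6 CPM in control and 8.25 and 8.75 CPM in *Sox17*-*Erg* libraries there, and 20.6 and 16.5 CPM against 15.5 and 16.3 CPM at 4 weeks. With both libraries of extreme depth left out, the Day 3 calls of this list and of the 4 lists below were lost. That fit left a single library in a group at Day 3 and at 4 weeks, and calls fell among all genes there too. The Klotho co-receptors were scarce. *Kl* held 2 to 8 counts per library and did not pass the filter, and *Klb* had 0 counts in 7 of 12 libraries.

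Heparan sulfate core proteins, which hold ligands at the cell surface and in the matrix, held genes called in both directions, and at 4 weeks 7 of 13 were higher, where 11.9% of all genes were. Of 13 tested, 2 passed as higher and 2 as lower at the first time point, 4 higher and 3 lower at the next, and 7 higher and 3 lower at the last, with medians of -0.04, 0.34 and 1.52 on the log2 scale. *Gpc1*, a glypican, measured 3.23 and 2.97 CPM in control and 69.3 and 59.4 CPM in *Sox17*-*Erg* libraries at 4 weeks (4.37 ± 0.23 SE, adjusted p = 1.18e-05). *Gpc4* measured 70.9 and 64.9 CPM against 267 and 233 CPM (1.88 ± 0.19, adjusted p = 0.000233). *Gpc2* was also higher at all 3 time points, by 1.13, 1.49 and 2.24. In the other direction *Gpc3* measured 79.1 and 48.6 CPM against 13.5 and 14.7 CPM at Day 3 (-2.18 ± 0.37, adjusted p = 0.00891) and was lower at Day 7 by -2.75 ± 0.37.

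**Figure D5:**
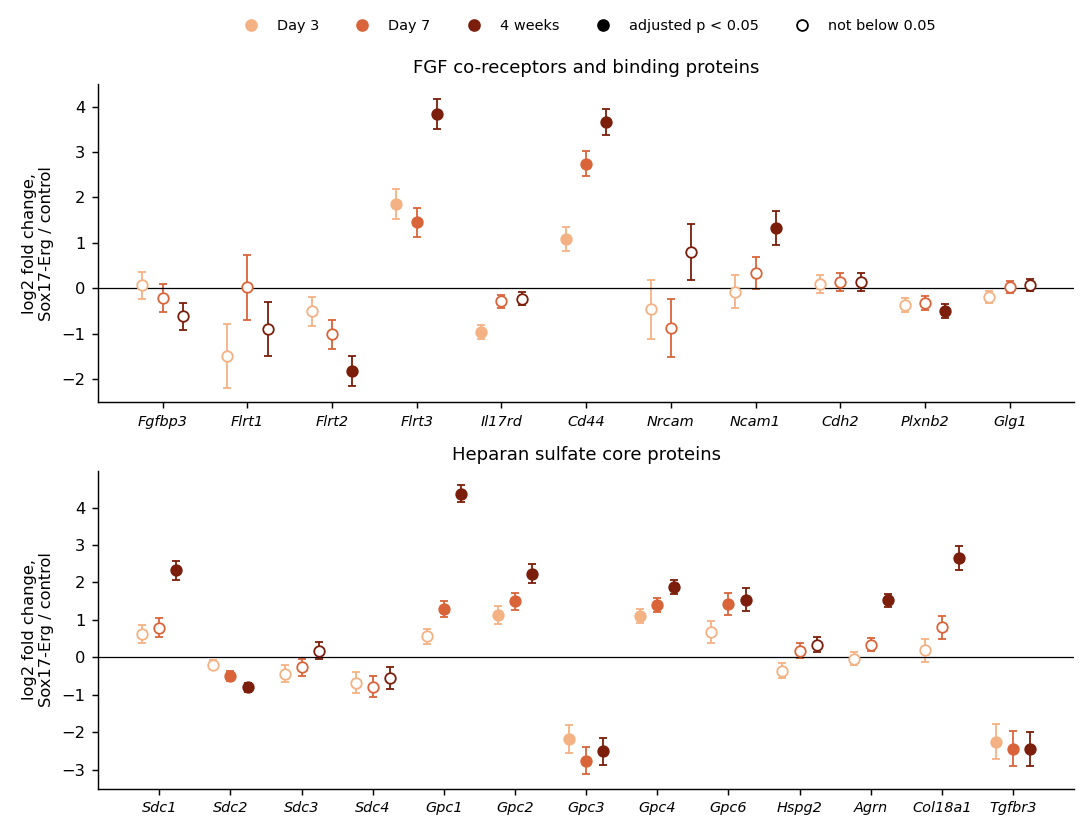
Log2 fold change of Sox17-Erg over control at 3 time points for co-receptors and binding proteins (top) and heparan sulfate core proteins (bottom) that were tested and had counts in every library (y axis, log2 units; error bars: standard error; filled points: adjusted p under 0.05). At 4 weeks Flrt3 and Cd44 stand at 3.84 and 3.67 and Gpc1 at 4.37, while Flrt2 stands at -1.83.

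Among enzymes that build or trim heparan sulfate, the calls at Day 3 were near or below the share of all genes, and more were called later. Of 18 tested, 0 passed as higher and 1 as lower at the first time point, 3 and 3 at the middle one, and 6 and 3 at the last time point, with medians of -0.13, -0.16 and 0.01 on the log2 scale. *Ext1*, a polymerase of the chain, was higher by 1.19 ± 0.19 (SE, adjusted p = 0.00378) at Day 7 and 1.60 ± 0.20 (adjusted p = 0.000593) at 4 weeks, and *Hs6st2*, a 6-O-sulfotransferase, by 1.71 ± 0.25 and 1.93 ± 0.26. At Day 3 they had 0.61 ± 0.19 (adjusted p = 0.0665) and 0.81 ± 0.25 (adjusted p = 0.0631). *Hs3st3a1*, a 3-O-sulfotransferase, was lower by -0.73 ± 0.19 (adjusted p = 0.0362) at Day 3 and -1.41 ± 0.18 (adjusted p = 0.000868) at 4 weeks. *Hpse*, the heparanase, measured 10.06 and 10.01 CPM in control and 1.38 and 2.55 CPM in *Sox17*-*Erg* libraries at Day 7 (-2.37 ± 0.28, adjusted p = 0.000777).

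The signal transducers inside the cell had medians near 0, and their calls stayed near the share of all genes at the first and middle time points. Of 29 tested, 1 passed as higher and 2 as lower at the first time point, 4 and 2 at the middle one, and 5 and 2 at the last time point, and their medians were 0.05, -0.03 and -0.01 on the log2 scale. *Sos1*, which loads RAS, was higher by 0.40 ± 0.11 (SE, adjusted p = 0.0449) at Day 3 and 0.50 ± 0.11 (adjusted p = 0.00991) at 4 weeks. *Stat5a* and *Pik3r1*, a regulatory subunit of PI3 kinase, were lower at Day 3 by -0.88 ± 0.18 and -0.38 ± 0.10. At Day 7 *Cbl* and *Hras* were higher by 0.40 ± 0.10 and 0.62 ± 0.15. At 4 weeks *Rps6ka1*, a kinase downstream of ERK, measured 1.15 and 1.63 CPM in control and 5.77 and 5.15 CPM in *Sox17*-*Erg* libraries (1.98 ± 0.30, adjusted p = 0.00175), and *Mapk3*, which encodes ERK1, was higher by 0.89 ± 0.14 (adjusted p = 0.00198). With both libraries of extreme depth left out, 3 of the 29 were called at Day 7, against 1194 higher and 1025 lower of all 16035 genes tested. At 4 weeks that fit left a single control library, and calls fell in this list and among all genes.

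Among genes that respond to FGF and ERK, calls at Day 3 and Day 7 were near the share of all genes, and more were called at 4 weeks. Of 23 tested, 1 passed as higher and 1 as lower at the first time point, 2 and 2 at the middle one, and 5 and 5 at the last time point, and their medians were 0.07, 0.05 and 0.16 on the log2 scale. *Spry2*, a feedback inhibitor of receptor signaling, was lower at each time point, by -0.75 ± 0.16 (SE, adjusted p = 0.0217), -1.30 ± 0.17 (adjusted p = 0.00119) and -1.50 ± 0.17 (adjusted p = 0.000331). At 4 weeks it measured 108 and 127 CPM in control and 39.9 and 42.6 CPM in *Sox17*-*Erg* libraries. *Spry1* and *Spry4* were also lower at 4 weeks, *Spry1* by -1.20 ± 0.26 (adjusted p = 0.00955). The 5 lower genes at 4 weeks include *Spry3*, which passed the filter on low counts only through control libraries (20 and 14 counts against 2 and 1 at 4 weeks), so its call is no support.

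In the other direction *Spred3*, another inhibitor of the ERK pathway, was higher by 0.69 ± 0.15 (SE, adjusted p = 0.0158) at Day 7 and 1.13 ± 0.15 (adjusted p = 0.00108) at 4 weeks, and the ETS genes *Etv4* and *Etv5*, known targets of FGF signaling, were higher at 4 weeks. *Myc* was higher at Day 3 by 1.46 ± 0.22 (adjusted p = 0.00504), where *Etv1* had -0.63 ± 0.20 (adjusted p = 0.0704). *Ier3* was higher at Day 7 by 1.63 ± 0.42 (adjusted p = 0.0294).

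Lists of markers of other cell types were read as well. The share of all tested genes called is the background of their counts. It was 7.19%, 9.48% and 11.9% for higher genes in time order. For lower genes it was 5.13%, 7.93% and 11.0%. At Day 3 the epicardial and mesothelial markers summed to 349 to 903 CPM in control and 162 to 265 CPM in *Sox17*-*Erg* libraries, with 2 of 10 lower, and the cardiomyocyte markers to 897 to 1538 CPM against 336 to 415 CPM, with 2 of 10 lower. DESeq2 called 7 and 2 of them. *Tnnt2* alone held 1431 and 832 CPM in control and 356 and 298 CPM in *Sox17*-*Erg* libraries, and it made up most of the cardiomyocyte sum at each time point. At Day 3 *Msln* led the epicardial, *Acta2* and *Tagln* the smooth muscle and *Lyz2* the macrophage sum. The smooth muscle and pericyte markers summed to 3897 to 4158 CPM against 5174 to 5294 CPM, with 2 of 10 higher. The sums of the fibroblast markers (33054 to 40326 against 26455 to 42025 CPM, 1 of 11 lower) and macrophage markers (281 to 422 against 278 to 312 CPM, 0 called) overlapped. *Col1a1*, *Col1a2* and *Postn* made up most of the fibroblast sum. DESeq2 called 6 of the 11 fibroblast markers. Their median log2 fold change in edgeR was -0.96, with 2 of 11 positive. *Pdgfra* measured 544 and 756 CPM in control and 114 and 292 CPM in *Sox17*-*Erg* libraries. *Dcn* measured 281 and 382 CPM against 65.7 and 157 CPM.

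At Day 7 the epicardial and mesothelial markers summed to 589 to 1126 CPM against 247 to 343 CPM, with 5 of 10 lower, and the cardiomyocyte markers to 647 to 896 CPM against 369 to 471 CPM, with 4 of 10 lower. The macrophage and leukocyte markers summed to 845 to 1264 CPM against 258 to 434 CPM, with 0 called by edgeR or DESeq2 and 1 at an unadjusted p under 0.05. The smooth muscle and pericyte markers summed to 1266 to 1899 CPM against 2922 to 5400.4 CPM, with 6 higher and 1 lower, and the fibroblast markers, with 1 higher and 4 lower, overlapped at 25078 to 33450 against 32303 to 35528 CPM.

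The 4 week sums also differed. The 10 epicardial and mesothelial markers summed to 953 to 1513 CPM in control and 173 to 275 CPM in *Sox17*-*Erg* libraries at 4 weeks, and 8 of 10 were lower and 0 higher. With both libraries of extreme depth left out, a single control library was left at 4 weeks. Calls then fell in this list and among all genes, and in the endothelial, smooth muscle and fibroblast lists as well. The 10 cardiomyocyte markers summed to 1086 to 1363 CPM against 687 to 688 CPM, with 7 lower. The 10 smooth muscle and pericyte markers summed to 1677 to 3263 CPM against 5255 to 5316 CPM, with 5 higher and 2 lower (1 of them, *Kcnj8*, passed the filter only through control libraries), and the 11 cardiac fibroblast markers to 16814 to 20432 CPM against 12837 to 13468 CPM, with 5 lower and 1 higher. The 10 macrophage and leukocyte markers summed to 50.1 to 403 CPM against 64.0 to 315 CPM, with 0 called by edgeR or DESeq2 and 0 at an unadjusted p under 0.05. The 15 endothelial markers summed to 1326 to 1972 CPM against 1698 to 1906 CPM, since *Eng* alone held 968 and 1501 CPM in control. No marker of these lists was at 0 counts in all libraries of any group, and the part of other cell types in the results for the FGF genes was not tested. The study's methods describe the THY1 selection before culture, and how complete it was in these cultures was not tested.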

How the data were processed

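Total RNA was extracted with TRIzol from 12 cultures in 6 groups, and mRNA libraries made with a stranded kit were sequenced in paired-end reads. The authors trimmed the reads with BBDuk and quantified genes with Salmon against mm10, and the deposited values were estimated counts for each gene. They were whole numbers without scaling. The submitters' processing notes also name bcl2fastq 2.20.0 and DESeq2. The Salmon version, the annotation and the strand setting were not given in the sources used here.

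Gene symbols came from GENCODE M21, and 35493 of 35727 identifiers matched. Genes were kept with edgeR's filterByExpr (minimum count 10, minimum total 15). Libraries were scaled by TMM, and 1 mean per group was fitted with edgeR 4.0.16 (R 4.3.3) by quasi-likelihood with 6 residual degrees of freedom. Adjusted p-values are Benjamini-Hochberg values over all 15506 tested genes, with a threshold of 0.05. Log2 CPM for permutation tests used a prior count of 2, and those p-values were adjusted over all tested genes too. DESeq2 1.42.0, other filters, a GC content offset, a replicate block and leaving out libraries were the alternatives. Leaving out both libraries of extreme depth and crossing the block at 4 weeks were chosen after seeing the data. The fit was tested on simulated data.

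The precision is limited by 2 libraries per group and by depth, 19011635 to 41240449 counts per library. Intervals and floors cover counting error only. The members and gene lists were chosen with earlier results of these data known. All 10 members were named. From each further list, the 3 genes with the smallest p in each *Sox17*-*Erg* comparison were named, except for a gene that is not reported here, and others named beside them were chosen after their values were seen. Genes most alike were the 2 with the highest Pearson r, given for called members other than *Fgf10*.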

Additional observations from a re-analysis of the deposited data

Results flagged for a closer look

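For 4 of the 10 members the *Sox17*-*Erg* effect differed between Day 3 and 4 weeks in a test of the difference itself, edgeR's interaction term. The effect was 2.23 ± 0.42 (SE, adjusted p = 0.0264) higher at 4 weeks on the log2 scale for *Fgf7*, 1.37 ± 0.21 (adjusted p = 0.0106) for *Fgfr1*, 3.25 ± 0.49 (adjusted p = 0.0101) for *Fgfr3* and 0.97 ± 0.21 (adjusted p = 0.0451) for *Fgfrl1*. For *Fgf7* the effect went from -1.98 to 0.24, so that a lower level at Day 3 was no longer seen at 4 weeks. For *Fgfr1* and *Fgfrl1* it went from -0.19 and -0.48 to 1.18 and 0.49, and for *Fgfr3* from -0.10 to 3.15. Of all tested genes, 3.21% passed it. With both libraries of extreme depth left out, which left a single library in a group at Day 3 and at 4 weeks, none of these calls was kept. The results for *Fgf7* and *Fgfrl1* were also lost without single libraries.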

How the results depend on the processing

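Depth limits *Fgf18* at Day 3 and *Fgfr4* at 4 weeks, whose counting intervals include no difference. At 4 weeks *Fgfr1* and *Fgfr3* were called in all 24 fits, the main fit included. Over single members, 1177 values kept direction and side of the threshold, 78 fell short of it, 26 newly passed and 22 turned sign. The causes of changes were not tested, beyond the fewer libraries or genes of a setting.

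The counts below include *Fgf10* and *Fgfr4*, which passed the filter through the group where they were higher. The share of all genes called also moved with the setting and is not given beside each count. At Day 3, DESeq2 called 1401 of all genes higher and 1272 lower, where edgeR called 1115 and 795. Fits without the extreme or single libraries left a single library in a group, where calls among all genes fell too. The members called with *Sox17*-*Erg* at Day 3 (2) were 4 by DESeq2, 0 with both libraries of extreme depth left out and 1 at an adjusted p under 0.01. At Day 7 (2) they were 0 with only the time point compared, 0 at 0.01 and 1 at a log2 fold change of at least 1. At 4 weeks (6) they were 5 by DESeq2, 4 with a GC content offset, 3 without the extreme libraries and 2 at 0.01. From Day 3 to Day 7 in control (1) they were 2 by DESeq2, 4 with no filter, 2 at a minimum count of 30, 0 with a GC content offset, 0 at 0.01 and 0 at a log2 fold change of 1. In *Sox17*-*Erg* cells (1) they were 4 by DESeq2, 5 with no filter, 3 at a count of 30, 0 without the extreme libraries and 0 at 0.01. From Day 7 to 4 weeks they were 1 by DESeq2 and 1 with no filter in control (0), and 3 by DESeq2, 3 with no filter, 0 without the extreme libraries and 0 at 0.01 in *Sox17*-*Erg* cells (1). From Day 3 to 4 weeks in control (3) they were 5 with no filter and 1 without the extreme libraries. The interaction of Day 3 and 4 weeks (4) gave 0 without the extreme libraries and 0 at 0.01, that of Day 3 and Day 7 (0) gave 1 by DESeq2 and 1 with no filter, and that of Day 7 and 4 weeks (0) gave 1 by DESeq2. Without single libraries the counts ran from 0 to 3 at Day 3, 0 to 2 at Day 7, 2 to 6 at 4 weeks, 0 to 2 from Day 3 to Day 7 in either group, 0 to 0 and 0 to 1 for the later step in control and *Sox17*-*Erg* cells, 2 to 4 and 6 to 8 over the whole span, 2 to 4 for the interaction of Day 3 and 4 weeks and 0 for the others.

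Replicate numbers are shared between groups, but nothing says that they mark the same isolation. Same-numbered control and *Sox17*-*Erg* libraries deviated together with correlations of 0.19, 0.30 and 0.17 in time order over 15506 genes, and within a group over time from -0.11 to 0.22. With a replicate block the counts were 2, 3 and 6 for *Sox17*-*Erg* against control in time order, 2 and 3 for the first step of time in control and *Sox17*-*Erg* cells, 0 and 1 for the second, 3 and 8 over the whole span and 4, 0 and 0 for the interactions. With a block within each time point they were 5, 4 and 7 in time order, and with a GC content offset and replicate block 3 from Day 3 to Day 7 in *Sox17*-*Erg* cells and 2 for the interaction of Day 3 and 4 weeks. With the block crossed at 4 weeks, the counts were 2 and 4 from Day 3 to Day 7 and 2 for the later step in *Sox17*-*Erg* cells.

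None of the values that turned sign had passed the test. Without single libraries, values on the log2 scale ran from -2.34 to 0.12 for *Fgf1* at Day 7, -0.10 to 0.50 for *Fgf7* and -1.02 to 0.38 for *Fgfr4* at 4 weeks, -0.11 to 0.17 for *Fgfrl1* at Day 7 and -0.27 to 0.28 for *Fgf10* over the whole span in *Sox17*-*Erg* cells. For the interaction of Day 3 and 4 weeks they ran from -0.23 to 0.44 for *Fgf2*, -0.77 to 0.28 for *Fgf18* and -0.61 to 0.33 for *Fgfr2*. Without both extreme libraries they were 0.47 for *Fgf18* and 0.32 for *Fgfr2* (interaction) and 0.38 for *Fgfr4* at 4 weeks. *Fgfr3* at Day 3 was 0.014 with a GC content offset and 0.017 with a GC content offset and replicate block, and *Fgfrl1* at Day 7 was -0.0081 at a minimum count of 30.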
